A study of Mus musculus with 6 samples.

Results

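*Krt6a*, *Krt6b*, *Krt16* and *Krt17* are the keratin genes of injured and hyperplastic epidermis, and their RNA was examined in full-thickness dorsal neck skin of mice that carry an activated YAP mutant. These 4 genes, of 26579 with a row in the count table, were selected by name with their results in the same libraries already known, and the identifiers were matched to symbols in GENCODE release M21 on GRCm38. The skin came from 3 female YAP2-5SA-∆C mice (TG) at 33 days of age, early in their visible skin phenotype, and from 3 female wild type littermates (WT) without the transgene. The transgene makes a mildly activated YAP, the transcriptional co-activator restrained by Hippo signalling, in basal keratinocytes, so any change in other cells of the biopsy is seen together with that in keratinocytes. Fewer cells of a type and less RNA per cell cannot be told apart in such bulk samples.

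Keratins build the intermediate filaments of epithelial cells, and each filament needs a type I and a type II keratin. Basal keratinocytes of the epidermis use the pair of KRT5 and KRT14, and their suprabasal daughters switch to KRT1 and KRT10. *Krt6a* and *Krt6b* encode type II keratins and *Krt16* and *Krt17* type I keratins, and together they form the stress set: in healthy skin they are made in parts of the hair follicle, in nail and in footpad, and the epidermis between follicles takes them up after wounding and in hyperproliferative disease. Within the follicle KRT6A and KRT17 belong to the companion layer and outer root sheath, and KRT17 is also found in the growing hair itself.

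The 4 genes lie in pairs within the 2 keratin gene clusters, all on the minus strand. *Krt6b* (ENSMUSG00000023041, chr15:101676023-101680287) is followed after 9622 bases by *Krt6a* (ENSMUSG00000058354, chr15:101689910-101694307) in the type II cluster. *Krt16* (ENSMUSG00000053797, chr11:100246091-100248902) is followed after 7314 bases by *Krt17* (ENSMUSG00000035557, chr11:100256217-100261029) in the type I cluster. How alike the members of each pair are sets how surely a short read can be given to one of them, so a few stretches of the reference coding sequence are shown, read 5′ to 3′ on the strand of the gene. The coding sequences of *Krt6a* and *Krt6b* were identical at 97.8% of 1659 aligned bases, with 37 mismatches, and part of the first exon (chr15:101694126-101694215 in *Krt6a* and chr15:101680101-101680190 in *Krt6b*) had no difference at all.
Krt6a and Krt6b, first exon: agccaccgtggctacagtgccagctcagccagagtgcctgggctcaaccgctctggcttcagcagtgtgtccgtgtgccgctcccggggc
The stretch of 90 bases in which this pair differed most lies in exon 4 of both genes (chr15:101692484-101692573 in *Krt6a* and chr15:101678303-101678392 in *Krt6b*) and holds 12 differences, shown in capitals.
Krt6a, exon 4: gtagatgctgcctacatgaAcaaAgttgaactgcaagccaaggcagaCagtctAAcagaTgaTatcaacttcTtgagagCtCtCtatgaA
Krt6b, exon 4: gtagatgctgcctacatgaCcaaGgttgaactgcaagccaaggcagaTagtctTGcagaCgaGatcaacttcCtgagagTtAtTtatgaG
*Krt16* and *Krt17* were identical at 80.5% of 1255 aligned coding bases, and their most different stretch of 90 coding bases, which crosses from exon 2 into exon 3 in both genes, holds 27 differences, again in capitals.
Krt16, exons 2 and 3: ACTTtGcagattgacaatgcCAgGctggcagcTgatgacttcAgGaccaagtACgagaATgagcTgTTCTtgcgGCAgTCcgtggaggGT
Krt17, exons 2 and 3: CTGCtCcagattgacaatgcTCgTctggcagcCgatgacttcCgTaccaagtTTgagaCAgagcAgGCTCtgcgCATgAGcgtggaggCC

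Only uniquely mapped reads were counted, so a read pair that lies wholly in stretches without differences adds to neither gene. Of the 2204 windows of 75 bases (the read length) along the *Krt6a* transcript, 932 (42.3%) occurred also in another gene, 797 of them in *Krt6b*. Of the 2161 windows of *Krt6b*, 856 (39.6%) were shared. For *Krt16* the share was 28.9% of 1491 windows, 335 windows being shared with the predicted gene *Gm11597* and 96 with *Krt14*. None of the 1477 windows of *Krt17* was found elsewhere. The levels of *Krt6a*, *Krt6b* and *Krt16* may therefore be too low relative to that of *Krt17*, by an amount that was not measured, and the mates of paired reads, which can place a shared read, were not modelled. The predicted genes *Gm44342* and *Gm49428* overlap *Krt6a* and *Gm44383* overlaps *Krt6b*, and reads in the overlap may have been set aside. *Krt6a* and *Krt6b* are given singly and as the sum of their counts.

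The libraries held between 11225705 and 19505036 counts, and each value of a stress keratin rested on 427 to 23185 counts. Levels are in CPM, the count of a gene scaled to library size with TMM factors, and differences between genotypes are the log2 fold changes of edgeR's quasi-likelihood fit over the 15102 genes that reached 1 CPM in 3 or more libraries. All 4 stress keratins passed that filter. The targeted gene was looked at first: mouse *Yap1* had 131 ± 9.47 CPM in WT and 136 ± 7.32 CPM in TG skin (SD, n = 3 mice each), and whether reads of the transgene count towards this row is not known. TG replicate 2 stood apart from the other libraries in its hair genes. Values without it are given beside the lists below, and those for single genes, the hair genes and the marker lists were added after the data were seen.

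In YAP2-5SA-∆C skin, 3 of the 4 stress keratins were higher than in wild type skin and *Krt17* was lower. *Krt6b* differed most (7.21-fold), followed by *Krt16* (4.73-fold) and *Krt6a* (2.41-fold), whereas the *Krt17* level was 0.648 of that in WT. Because the genes were chosen by this contrast, these values are a description and no test is attached to them. The name of the set as hyperplasia keratins thus held in these libraries for *Krt6a*, *Krt6b* and *Krt16* but not for *Krt17*.

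*Krt6b*, the type II keratin with the lowest wild type level of the set, had 23.5, 44.6 and 72.5 CPM in WT replicates 1, 2 and 3 and 429, 181 and 400.1 CPM in TG replicates 1, 2 and 3. The genotypes did not overlap, and the lowest TG library stood well above the highest WT library. The means were 46.9 ± 24.6 CPM in WT and 337 ± 136 CPM in TG (SD, n = 3 mice each), and the log2 fold change was 2.85 with a standard error of 0.48. By size of log2 fold change *Krt6b* ranked 8 of the 15102 genes from the top.

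*Krt6a*, its near-identical neighbour, had 152, 261 and 190.0 CPM in the WT libraries and 548, 262 and 642 CPM in the TG libraries. TG replicate 2, at 262.2 CPM, was level with WT replicate 2, at 260.7 CPM, while the other TG libraries had more than 2-fold the highest WT value. The means were 201 ± 55.1 CPM and 484 ± 198 CPM (SD, n = 3 mice each), and the log2 fold change was 1.27 with a standard error of 0.34. Without TG replicate 2 the log2 fold change was 1.58. *Krt6a* ranked 126 of 15102.

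Summed, *Krt6a* and *Krt6b* had 176, 305 and 262 CPM in WT and 978, 443 and 1042 CPM in TG skin. All TG sums were above all WT sums. The log2 fold change of the summed counts was 1.73 with a standard error of 0.35, or 3.31-fold, which does not depend on how reads were divided between the pair.

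*Krt16*, the type I partner of KRT6 in activated epidermis, had 56.2, 66.0 and 110.1 CPM in WT and 343, 304 and 450.1 CPM in TG skin. It was the member with the narrowest TG range, and its groups were far apart. The means were 77.4 ± 28.7 CPM and 366 ± 75.7 CPM (SD, n = 3 mice each), and the log2 fold change was 2.24 with a standard error of 0.27, which ranked 25 of 15102.

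*Krt17*, the other type I member, had 962, 1213 and 1030.05 CPM in WT and 730.2, 475 and 870.2 CPM in TG skin. Every TG library was below every WT library, the smallest gap being that between TG replicate 3 and WT replicate 1. The means were 1068 ± 130.1 CPM and 692 ± 200.4 CPM (SD, n = 3 mice each), and the log2 fold change was -0.63 with a standard error of 0.22. TG replicate 2 carried part of this, as the log2 fold change was -0.40 without it.

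**Figure D1:**
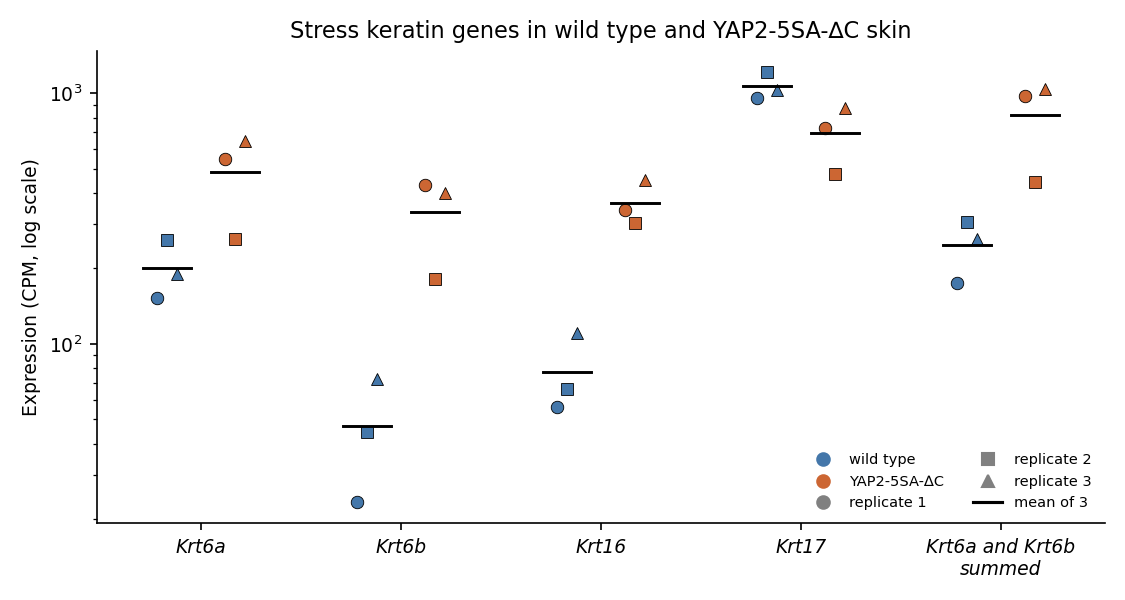
Expression of the stress keratin genes in CPM (vertical log axis) in each library, with wild type in blue, YAP2-5SA-∆C in orange, the marker shape giving the replicate and the black bar the mean of 3. *Krt6a*, *Krt6b* and *Krt16* lie higher and *Krt17* lower in YAP2-5SA-∆C skin, and TG replicate 2 (orange square) is the lowest TG library for each gene.

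For scale, 1.91% of all tested genes had an FDR (the Benjamini-Hochberg adjusted p over all of them) below 0.05 in edgeR's quasi-likelihood test, 1.44% higher and 0.464% lower in TG skin, and 2 of the 4 stress keratins were among the higher ones (*Krt6b* and *Krt16*). Without adjustment, p was below 0.05 for 3968 of the 15102 tested genes in that quasi-likelihood fit with all libraries. Unadjusted counts in the lists below are to be read against this background. Every TG library lay above every WT library for 15.5% of tested genes and below for 18.2%. The median log2 fold change of all tested genes was -0.01 and their SD 0.44. Nothing is read from these counts about the 4 genes, as the same contrast chose them. The number of genes past the threshold also hung on single libraries: it was 288 with all 6 libraries, 816 without TG replicate 2, 142 without WT replicate 1, 86 without TG replicate 1 and 0 without WT replicate 2, WT replicate 3 or TG replicate 3. In those last fits an unadjusted p below 0.05 was reached by 2725, 2844 and 3692 genes.

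The spread between mice of one genotype differed among the genes. In WT skin the SD of log2 CPM was 0.17 for *Krt17*, 0.39 for *Krt6a*, 0.51 for *Krt16* and 0.81 for *Krt6b*. In TG skin it was 0.29 for *Krt16*, 0.45 for *Krt17* and 0.69 for both *Krt6a* and *Krt6b*. TG replicate 2 was the lowest TG library for all 4 genes, below the TG mean by 0.79 for *Krt6a*, 0.80 for *Krt6b*, 0.25 for *Krt16* and 0.50 for *Krt17* on the log2 scale. WT replicate 3, the library with the fewest counts, was the highest WT library for *Krt6b* (0.77 above the WT mean of log2 CPM) and *Krt16* (0.57 above), but not for *Krt6a* or *Krt17*. *Krt6b* and *Krt16* thus put the WT libraries in the same order, while *Krt6a* and *Krt17* had WT replicate 2 at the top.

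Levels of different genes were compared per kb of annotated exon. In WT skin *Krt17* had 689 ± 83.9 CPM per kb, *Krt6a* 83.1 ± 22.8, *Krt16* 49.5 ± 18.3 and *Krt6b* 21.0 ± 11.002 (SD, n = 3 mice each), and this order was found in each WT library. *Krt17* stood apart from the rest and *Krt6b* below the rest, whereas the ranges of *Krt6a* and *Krt16* overlapped across libraries. In TG skin the levels were 446 ± 129 CPM per kb for *Krt17*, 234 ± 48.4 for *Krt16*, 200.3 ± 81.8 for *Krt6a* and 151 ± 60.7 for *Krt6b*. *Krt17* remained the highest in each TG library and *Krt6b* the lowest. *Krt16* was above *Krt6a* in TG replicates 2 and 3 and below it in TG replicate 1, and the range of *Krt6a* overlapped both that of *Krt16* and that of *Krt6b*. With the unique windows as length, *Krt6a* came to 381 and *Krt16* to 345 CPM per kb in TG skin, so the order of this pair depends on the length used.

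Among the 54 keratin genes in the table, the rank by level per kb went from 35 in WT to 13 in TG skin for *Krt6b*, from 29 to 11 for *Krt16* and from 26 to 12 for *Krt6a*. *Krt17* went from rank 7 to rank 8. Together the 4 genes made up 6.26%, 6.98% and 6.39% of the summed keratin level per kb in the WT libraries and 11.1%, 7.30% and 11.9% in the TG libraries. Their own summed level, however, overlapped between the genotypes, with 729, 952 and 845 CPM per kb in WT and 1109, 690 and 1293 CPM per kb in TG skin. The total over all keratin genes was lower in every TG library, with 12842 ± 1048 CPM per kb in WT and 10085 ± 691 in TG skin (SD, n = 3 mice each).

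Within each pair of neighbours the composition differed between the genotypes. *Krt6b* took 13.4% (95% Wilson interval 12.2% to 14.6%), 14.6% (13.7% to 15.5%) and 27.6% (26.0% to 29.3%) of the counts of *Krt6a* and *Krt6b* in WT replicates 1, 2 and 3. In TG replicates 1, 2 and 3 it took 43.9% (43.2% to 44.7%), 40.9% (39.8% to 42.0%) and 38.4% (37.7% to 39.1%). The TG shares were close to each other, also in TG replicate 2 with its lower sum, and all were above the WT shares, of which WT replicate 3 was the highest. The intervals cover counting error only. As a share of the level per kb, *Krt6b* made up 19.7 ± 8.26% in WT and 43.0 ± 2.81% in TG skin (SD, n = 3 mice each). How reads of the shared sequence were divided between the pair, or lost from both, was not tested.

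In the type I pair, *Krt16* made up 5.48%, 5.11% and 9.58% of the level per kb of *Krt16* and *Krt17* in WT and 31.8%, 38.8% and 33.9% in TG skin. Put as a ratio, *Krt17* had 15.1 ± 4.93 times the level per kb of *Krt16* in WT and 1.89 ± 0.291 times in TG skin (SD, n = 3 mice each). The lowest WT ratio, 9.44 in WT replicate 3, was above the highest TG ratio, 2.15 in TG replicate 1. With unique windows as length the ratio was 10.7 ± 3.51 in WT and 1.35 ± 0.207 in TG skin (SD, n = 3 mice each), still without overlap.

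Type I and type II keratins pair one to one in filaments, and the levels of both types of stress gene were therefore set against each other. The summed level per kb of *Krt16* and *Krt17* was 8.93, 6.45 and 6.62 times that of *Krt6a* and *Krt6b* in WT and 1.65, 2.64 and 1.91 times in TG skin. The size of this ratio depends on the length used: with unique windows it was 5.12, 3.70 and 3.91 in WT and 1.08, 1.76 and 1.25 in TG skin. It was lower in every TG library under both lengths. These are RNA levels, and KRT17 also has type II partners in the follicle other than the KRT6 proteins.

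**Figure D2:**
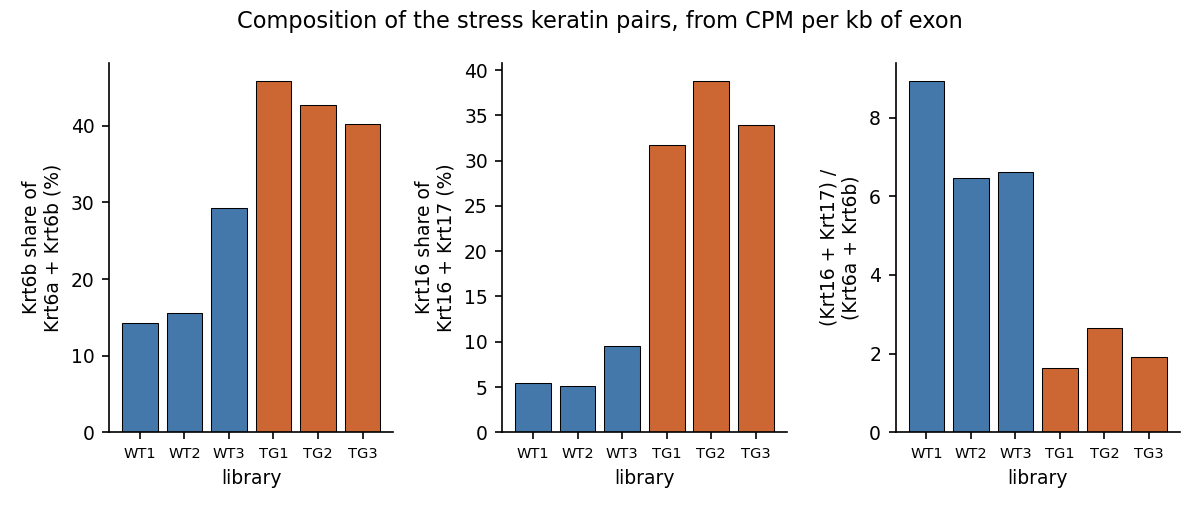
From left to right, the share of *Krt6b* in *Krt6a* and *Krt6b*, the share of *Krt16* in *Krt16* and *Krt17* (both in percent) and the ratio of the type I to the type II stress genes in each library, from CPM per kb of exon, with wild type (WT) in blue and YAP2-5SA-∆C (TG) in orange. In each panel the 3 TG bars lie beyond the 3 WT bars, and WT3 is the WT library nearest to TG in the middle panel.

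The genes of the normal epidermal layers give a scale for these values. *Krt14*, the basal type I keratin, rose from 1648 ± 19.6 to 3187 ± 300.2 CPM (SD, n = 3 mice each; log2 fold change 0.95, standard error 0.11, FDR 0.0300 in edgeR's quasi-likelihood test). Its type II partner *Krt5* had 870.3 ± 172 CPM in WT and 1430 ± 306 CPM in TG skin (FDR 0.0805, edgeR), and the suprabasal *Krt1* had 1434.5 ± 96.0 and 2364 ± 722 CPM (FDR 0.0887, edgeR). *Krt10* overlapped between the genotypes (log2 fold change 0.58, FDR 0.245, edgeR). The summed level of the 6 basal keratinocyte markers was 3315 to 3921 CPM in WT and 5406 to 6987 CPM in TG skin, and 1 of them, *Krt14*, passed in edgeR's quasi-likelihood test. In that fit 4 had an unadjusted p below 0.05, and DESeq2 called 4 and the likelihood-ratio test 3, all higher. The summed level of the 6 suprabasal markers with a row was 5000.3 to 5790.2 CPM in WT and 6019.7 to 10344 CPM in TG skin. Of these 6, 0 passed in edgeR's quasi-likelihood test, 1 had an unadjusted p below 0.05 there, and DESeq2 and the likelihood-ratio test called 1 each. Without TG replicate 2, edgeR called 2 basal markers (*Krt14* and *Itga6*) and 1 suprabasal marker (*Krt1*), all higher.

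Relative to *Krt14*, the stress genes fell into 3 patterns. *Krt16* amounted to 3.79%, 4.499% and 7.59% of the *Krt14* level per kb in WT and to 13.5%, 10.02% and 15.3% in TG skin, without overlap. *Krt6b* amounted to 2.25 ± 1.20% in WT and 8.52 ± 3.94% in TG skin (SD, n = 3 mice each), also without overlap. *Krt6a* relative to *Krt14* overlapped, with 6.63%, 11.5% and 8.48% in WT and 14.0%, 5.60% and 14.1% in TG skin, where TG replicate 2 was the lowest of all 6 libraries. *Krt17* was lower in every TG library, with 65.3%, 83.5% and 71.7% in WT and 29.1%, 15.8% and 29.8% in TG skin. Set against *Krt5*, *Krt6b* and *Krt16* were again above, *Krt17* below and *Krt6a* overlapping. What share of these differences goes with more basal keratinocyte RNA in the biopsies was not tested.

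*Krt17* was read beside other follicle genes, since it is made in the follicle of unwounded skin. *Krt75*, the type II keratin that defines the companion layer, had 375, 502 and 479 CPM in WT and 213, 73.5 and 245 CPM in TG skin. All TG values were below all WT values, with a log2 fold change of -1.35, and the difference did not pass the threshold (FDR 0.0965 in edgeR's quasi-likelihood test). Without TG replicate 2 the log2 fold change was -0.96 and passed (FDR 0.0180, edgeR). The 12 hair shaft and inner root sheath keratins with a row were lower in every TG library, with a median log2 fold change of -1.66. In edgeR's quasi-likelihood test 0 of 12 passed and all 12 had an unadjusted p below 0.05, while the likelihood-ratio test called 12 and DESeq2 0. With TG replicate 2 left out, edgeR called all 12 lower, with a median of -1.16. Their summed level was 10991, 15168 and 14056 CPM in WT and 5842, 1067 and 6821 CPM in TG skin, and no listed marker was below 1 CPM in all libraries. The TG mean of this sum was 34.1% of the WT mean, and 47.2% without TG replicate 2. *Krt17*, *Krt75* and the summed hair keratins put the 6 libraries in one and the same order, lowest in TG replicate 2, then TG replicates 1 and 3 and WT replicates 1, 3 and 2. *Krt16* did not share that order, with WT replicate 1 the lowest and TG replicate 3 the highest. Within each genotype *Krt6a* put the libraries in the same order as the hair keratins, but its TG libraries lay above its WT libraries. The part of the follicle in the lower *Krt17* was not tested.

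**Figure D3:**
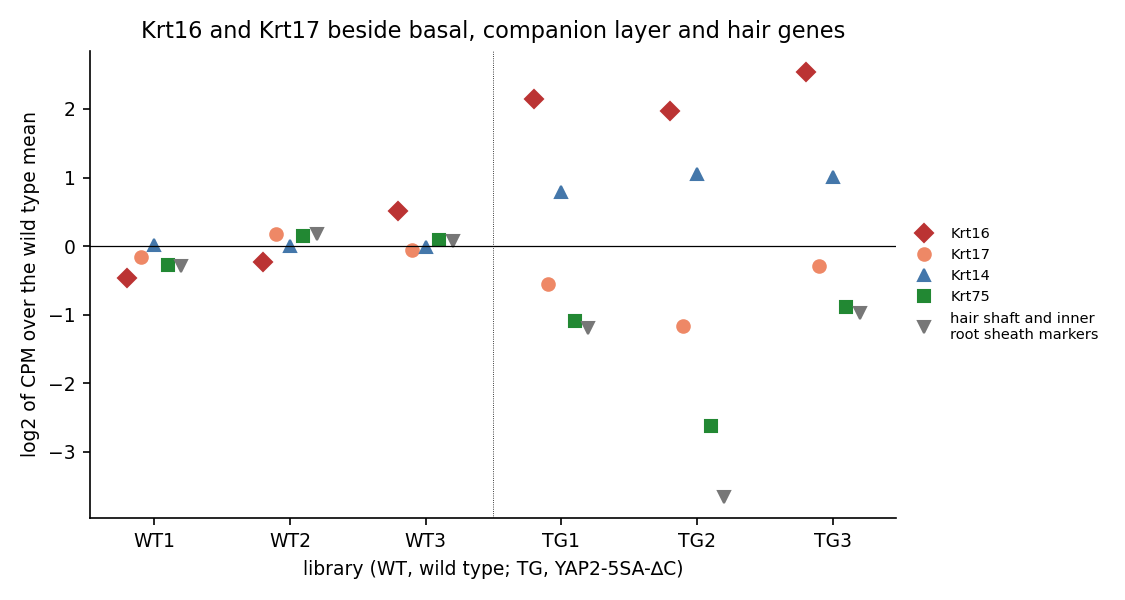
Log2 of the CPM in each library over the wild type mean for *Krt16*, *Krt17*, the basal keratin *Krt14*, the companion layer keratin *Krt75* and the sum of 12 hair shaft and inner root sheath keratins. In the TG libraries *Krt16* and *Krt14* lie above 0 and the other series below it, and TG2 is the lowest library for *Krt17*, *Krt75* and the hair keratins.

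Of the 14 genes listed for companion layer, infundibulum and outer root sheath, 0 passed the quasi-likelihood test of edgeR, 6 had an unadjusted p below 0.05, and DESeq2 and the likelihood-ratio test each called 5. Their median log2 fold change was -0.05, against -0.01 for all tested genes. Beside *Krt75*, the chemokine *Cxcl14* had the lowest value (log2 fold change -0.72, FDR 0.0620, edgeR). Both passed without TG replicate 2, *Cxcl14* at -0.53 (FDR 0.0220, edgeR). In the full set the infundibular keratin *Krt79* (0.72, FDR 0.120, edgeR) and the bulge keratin *Krt15* (0.51, FDR 0.173, edgeR) had positive values. The companion layer gene was thus the lowest of the list. Stem cell and bulge genes lay on both sides of 0, from *Tbx1* at -0.54 over *Lgr5* at -0.28, *Sox9* at -0.18 and *Tcf7l1* at -0.12 over *Cd34*, *Lrig1* and *Lhx2* at 0.02 to 0.09 to *Nfatc1* at 0.58 and *Lgr6* at 0.60, and of these *Nfatc1* was higher (FDR 0.0691, edgeR) and *Tbx1* lower (FDR 0.101, edgeR) in every TG library.

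Across the whole keratin family, *Krt6b*, *Krt16* and *Krt6a* ranked 1, 2 and 4 by log2 fold change among the 45 tested keratin genes. Of the 41 that are not stress keratins, 2 rose and 1 fell in edgeR's quasi-likelihood test, and 37 had an unadjusted p below 0.05 there. DESeq2 called 7 higher and 3 lower, the likelihood-ratio test 7 higher and 26 lower and voom 2 higher and 0 lower. The median log2 fold change of the 41 was -1.39, with negative values for 32 and all TG libraries below all WT libraries for 30. Beside *Krt14*, the riser was *Krt4*, a keratin of internal stratified epithelia, at 0.544 ± 0.106 CPM in WT and 2.19 ± 0.552 CPM in TG skin (SD, n = 3 mice each; log2 fold change 2.03, FDR 0.0398, edgeR). *Krt8*, a keratin of simple epithelia and of Merkel cells, fell from 3.35 ± 0.620 to 0.875 ± 0.404 CPM (SD, n = 3 mice each; log2 fold change -1.92, FDR 0.0456, edgeR). Both were near the filter, which *Krt4* passed through the TG libraries alone and *Krt8* through all WT libraries and 1 TG library, the genotype where each is high. Without TG replicate 2 the count of other keratins past the threshold was 28, of which 25 were lower and 3 higher. It was 1 without WT replicate 1 or TG replicate 1 and 0 without any of the other 3 libraries, where 10, 11 and 35 of these genes had an unadjusted p below 0.05 (without WT replicate 2, WT replicate 3 and TG replicate 3).

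Neighbouring genes did not always share a sign. *Krt16* and *Krt17*, neighbours in the type I cluster, had opposite ones. On their outer sides lie *Krt14*, next to *Krt16*, which was higher in TG skin, and *Krt42*, next to *Krt17*, at 0.680 ± 0.161 CPM in WT and 0.380 ± 0.214 CPM in TG skin (SD, n = 3 mice each), too low to be tested. In the type II cluster *Krt6a* and *Krt6b* lay between *Krt5*, with a log2 fold change of 0.72, and the keratin-like gene *Gm5478*, which overlapped between the genotypes and held 4 to 70 counts. *Gm5478* shares 142 windows with *Krt6a*, and *Gm5414*, which shares 67 with *Krt6b*, had 2, 2 and 0 counts in WT and 24, 11 and 30 counts in TG skin. Counts of *Gm5414* may hold reads of the *Krt6* genes and the reverse.

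**Figure D4:**
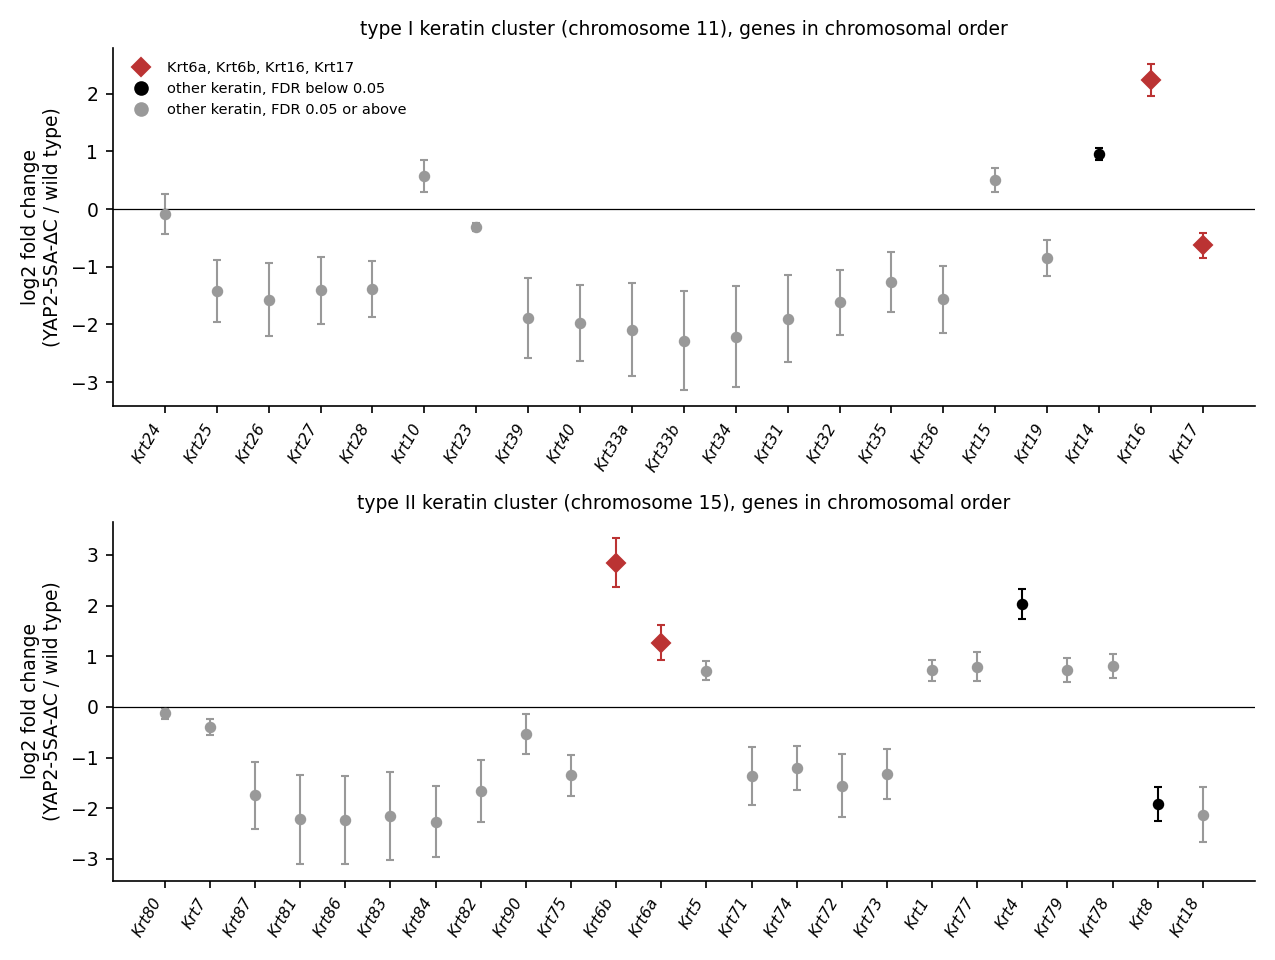
Log2 fold change (YAP2-5SA-∆C over wild type, bars give the standard error) of each tested keratin gene of the type I cluster on chromosome 11 and of the cluster on chromosome 15, which holds the type II genes and *Krt18*, in chromosomal order. Among the stress keratins (red diamonds), *Krt16* at 2.24 and *Krt6b* at 2.85 hold the highest value of their panel and *Krt17* lies at -0.63, and 32 of the 41 other keratins lie below 0.

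The stress keratins are part of a wider activation programme of keratinocytes, with cornified envelope proteins of repair, IL-36 cytokines, antimicrobial proteins and proteases. Of 42 listed genes of that programme, 34 were tested, and in edgeR's quasi-likelihood test 9 rose and 0 fell in TG skin, with 25 at an unadjusted p below 0.05. DESeq2 called 20 higher and 1 lower, the likelihood-ratio test 21 higher and 1 lower and voom 8 higher and 0 lower. Without the filter on low counts edgeR called 15 of all 42 higher and 0 lower. The median log2 fold change was 0.92, against -0.01 for all tested genes. As all lists were chosen with earlier results of these data known, this difference is a description. The counts of calls for this list were 14 without TG replicate 2 (13 higher and 1, *Gjb2*, lower), 5 without TG replicate 1, 2 without WT replicate 1 and 0 without WT replicate 2, WT replicate 3 or TG replicate 3. The late envelope gene *Lce3e* rose from 0.635 ± 0.130 to 4.29 ± 0.454 CPM (log2 fold change 2.72, FDR 0.0101, edgeR) and *Lce3f* from 0.359 ± 0.0262 to 2.30 ± 0.801 CPM (SD, n = 3 mice each; log2 fold change 2.66, FDR 0.0341, edgeR). *Sprr1b*, a small proline-rich envelope precursor induced by stress, rose from 27.8 ± 6.67 to 104 ± 9.865 CPM (SD, n = 3 mice each; log2 fold change 1.90, FDR 0.0194, edgeR). *Il36b*, an epithelial cytokine of the IL-1 family listed as *Il1f8* in the annotation, rose from 17.01 ± 0.377 to 30.7 ± 4.39 CPM (SD, n = 3 mice each; log2 fold change 0.85, FDR 0.0332, edgeR). The other genes past the threshold were *Lce3c*, *Il36a*, *Mmp9*, *Mmp13* and *Ptgs2*. Of the 9, *Lce3e*, *Lce3f* and *Mmp13* were below 1 CPM in every WT library and passed the filter only through TG skin, where they are high, so they had to differ to be tested. Among the 29 genes at 1 CPM in more than 1 library of each genotype, 6 rose and the median was 0.85.

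The list did not move as one. *Sprr1a*, the close relative of *Sprr1b*, had 512 ± 103 CPM in WT and 313 ± 120 CPM in TG skin (SD, n = 3 mice each), with overlapping groups, and the gap junction gene *Gjb2*, which is often raised together with the stress keratins, had 482 ± 44.7 and 259.7 ± 131 CPM with all TG libraries lower (FDR 0.199, edgeR). Without TG replicate 2 *Gjb2* passed, at a log2 fold change of -0.51 (FDR 0.0302, edgeR). The antimicrobial alarmins *S100a8* and *S100a9* overlapped between the genotypes (FDR 0.462 and 0.298, edgeR). *Tgm1*, *Ivl* and *Cd44* had log2 fold changes of -0.04, 0.08 and 0.13. The genes of this paragraph were picked after their values were seen.

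**Figure D5:**
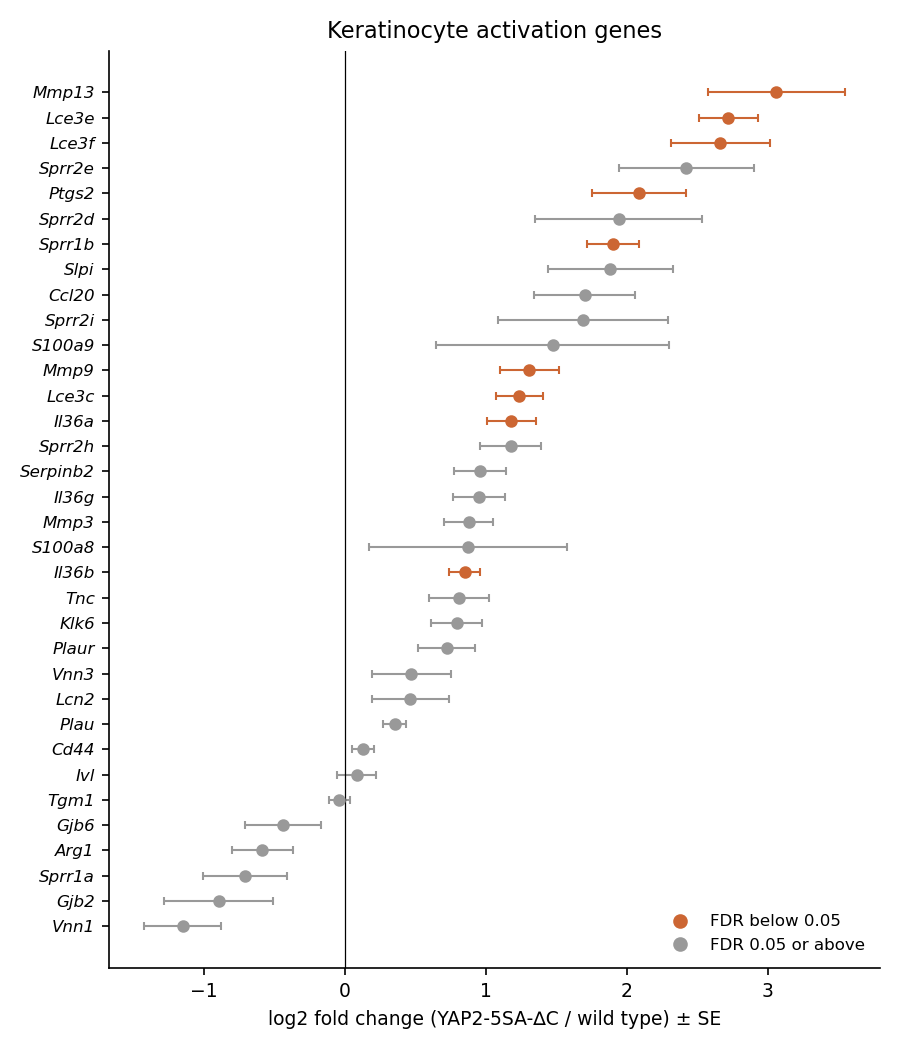
Log2 fold change (YAP2-5SA-∆C over wild type) with its standard error for the 34 tested genes of the keratinocyte activation list, in order of size, with genes at an FDR below 0.05 in orange. The 9 genes past the threshold all lie above 0, and 6 of the 34 lie below 0.

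Stress keratin genes are induced in keratinocytes by ligands of the EGF receptor and by cytokines such as IL-1, IL-6 family members, IL-17 and IL-22. Of 37 such ligands and receptors, 35 had a row and 30 were tested, and 0 passed the quasi-likelihood test of edgeR, where 19 had an unadjusted p below 0.05. DESeq2 called 14 (13 higher and 1, *Egfr*, lower) and the likelihood-ratio test 9, all higher, while voom called 0. The median log2 fold change was 0.33 and 25 of the 30 values were positive. *Il1b* had the highest value, 2.87, at 1.71 ± 0.766 CPM in WT and 12.5 ± 8.38 CPM in TG skin, and *Epgn*, an EGF receptor ligand, followed at 9.35 ± 1.89 and 26.6 ± 10.9 CPM (SD, n = 3 mice each), with FDRs of 0.0635 and 0.0584 in edgeR. Leaving out TG replicate 2 brought the list to 4 calls, all higher: *Il1b* at 3.34 (FDR 0.00851, edgeR), *Ereg* at 0.49, and the receptors *Il17rc* at 0.51 and *Tnfrsf1a* at 0.38. *Egfr* itself had 368 ± 2.47 CPM in WT and 297 ± 29.8 CPM in TG skin (SD, n = 3 mice each; FDR 0.0786, edgeR), and the ligand *Tgfa* was also lower in every TG library. *Il17a* and *Il22* were not analysed here, and *Ifng* and *Il20* were below 1 CPM in each library.

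Among 36 transcription factors that act on stress keratin genes or with YAP, all were tested, and in edgeR's quasi-likelihood test 2 rose and 0 fell, with 12 at an unadjusted p below 0.05. DESeq2 called 8, the likelihood-ratio test 5 and voom 2, all higher, and the median log2 fold change was 0.15. *Fosb*, an AP-1 subunit, rose from 0.929 ± 0.0675 to 3.80 ± 1.28 CPM (SD, n = 3 mice each; log2 fold change 2.02, FDR 0.0377, edgeR). Before scaling it reached 1 CPM in 1 WT library and in all 3 TG libraries, so it passed the filter through TG skin, where it is high. *Gli1* and *Gli2*, the Hedgehog effectors of the follicle, overlapped between the genotypes, as did *Tead1*, *Tead2* and *Tead3*, which bind DNA for YAP. *Tead4*, the other member of that family, had 12.2, 10.5 and 12.7 CPM in WT and 14.0, 19.5 and 14.3 CPM in TG skin, higher in every TG library without passing the threshold (log2 fold change 0.43, FDR 0.138, edgeR). Without WT replicate 1, WT replicate 2, WT replicate 3 or TG replicate 3, 0 of the 36 passed, where 10, 6, 9 and 14 had an unadjusted p below 0.05, and 6 passed without TG replicate 2, all higher.

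Of 15 listed proteins that anchor or bind keratin filaments, 12 were tested, 0 passed in edgeR's quasi-likelihood test or by any other tool run, 1 had an unadjusted p below 0.05 in edgeR, and the median log2 fold change was 0.14. Desmoplakin (*Dsp*) had 3280.4 ± 219 CPM in WT and 3662 ± 704 CPM in TG skin, and stratifin (*Sfn*), the adaptor that binds KRT17, had 591 ± 34.9 and 594 ± 52.8 CPM (SD, n = 3 mice each). Trichohyalin (*Tchh*), a filament-binding protein of the inner root sheath, had 4049 ± 325 CPM in WT and 1721 ± 1240.1 CPM in TG skin (SD, n = 3 mice each; log2 fold change -1.23, FDR 0.225, edgeR), and plakophilin *Pkp2* had a log2 fold change of -0.45 (FDR 0.0855, edgeR). For *Tchh* and *Pkp2* every TG library was below every WT library. Without TG replicate 2 the log2 fold changes were -0.76 for *Tchh* (FDR 0.0919, edgeR) and -0.36 for *Pkp2* (FDR 0.187, edgeR). The summed level of the list was 11622 to 11908 CPM in WT and 9874 to 10514 CPM in TG skin. Without *Tchh*, a sum added after the values were seen, it was 7220 to 7923 and 7476 to 10082 CPM, so the lower total in TG skin rested on that gene. Of the 20 cell cycle genes 0 passed under any tool or alternative run, and 0 had an unadjusted p below 0.05 in edgeR with all libraries. With single libraries left out the most at an unadjusted p below 0.05 was 6, without TG replicate 1. The median of the 20 was -0.10, with 15 values negative and 2 genes lower in every TG library. *Mki67* had 656 ± 34.9 CPM in WT and 611 ± 76.3 CPM in TG skin (SD, n = 3 mice each). The higher *Krt6a*, *Krt6b* and *Krt16* thus came without a detected difference in cell cycle RNA at the level of the whole biopsy.

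The shape of the stress keratin values over the 6 libraries was compared with that of 10116 genes with a mean of at least 10 CPM, by the root mean square difference of centred log2 CPM. Among the members themselves *Krt6b* and *Krt16* were nearest (0.49), then *Krt6a* and *Krt16* (0.69), *Krt6a* and *Krt6b* (0.94) and *Krt6a* and *Krt17* (0.95), while *Krt16* and *Krt17* (1.51) and *Krt6b* and *Krt17* (1.83) were far apart. The physical pairs were thus not the nearest in pattern. The 6 genes most like the mean of the 4 members were *BC100530* (0.18), *Stfa1* (0.25), *Stfa3* (0.28), *Gm26870* (0.29), ENSMUSG00000089672 (0.30) and *Il33* (0.30). *Krt17* itself lay 1.06 from that mean. Outside the set, the nearest gene to *Krt16* alone was the predicted gene *Gm10800* (0.14) and to *Krt6b* the predicted gene *Gm11168* (0.34). For *Krt6a* it was ENSMUSG00000089672 (0.26) and for *Krt17* it was *Klk10* (0.05). *BC100530*, *Stfa1* and *Stfa3* belong to the stefin A cysteine protease inhibitors, a family of near copies in which reads may be split, and *Il33* encodes an epithelial alarmin cytokine. *BC100530* had 65.8, 115 and 104 CPM in WT and 286, 210.3 and 293 CPM in TG skin, and *Il33* had 17.8, 15.7 and 22.0 CPM in WT and 64.8, 49.8 and 63.9 CPM in TG skin. In both, as in *Krt6a*, *Krt6b* and *Krt16*, TG replicate 2 was the lowest TG library. Both genes were picked for their likeness over these same libraries, so this shared low value follows in part from the choice. These distances rest on 6 libraries and mostly on the difference between the genotypes.

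Markers of other cell types were called in the leukocyte and melanocyte lists. Of 10 leukocyte markers with a row, 2 rose (*Ptprc* and *Csf1r*), 8 were higher in every TG library, and their summed level was 270.4 to 304 CPM in WT and 383 to 427.5 CPM in TG skin. DESeq2 called 7 and the likelihood-ratio test 6 of them, all higher. Of 5 melanocyte markers 2 fell (*Dct* and *Tyrp1*), with sums of 408 to 478 CPM in WT and 151 to 261 CPM in TG skin. All 5 were lower in every TG library and had an unadjusted p below 0.05, and DESeq2 and the likelihood-ratio test called all 5 lower. Of 6 skeletal muscle markers 0 passed in edgeR's quasi-likelihood test, 0 had an unadjusted p below 0.05 and DESeq2 and the likelihood-ratio test called 0, and their sums overlapped, with 1330 to 6486 CPM in WT and 1275 to 3293 CPM in TG skin. For the 6 fibroblast, 6 adipocyte, 5 endothelial and 6 sebaceous gland markers 0 passed in each list in edgeR's quasi-likelihood test. An unadjusted p below 0.05 was reached there by 3, 0, 2 and 4 of them. DESeq2 called 2 fibroblast and 3 sebaceous markers, and the likelihood-ratio test called 2 sebaceous markers. Their sums were 9449 to 12801 CPM in WT and 12256 to 15936 CPM in TG skin for fibroblasts, 660.1 to 915 and 571 to 951 CPM for adipocytes, 91.6 to 102 and 106 to 131 CPM for endothelium, and 293 to 483 and 619 to 705 CPM for sebaceous gland. With TG replicate 2 left out, edgeR called 4 leukocyte and 1 sebaceous marker higher and all 5 melanocyte markers lower. The part of these cell types in the stress keratin values was not tested.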

How the data were processed

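The authors aligned 75-base read pairs to the GRCm38 genome (TopHat2, Bowtie2) and deposited raw counts of uniquely mapped reads per Ensembl gene from HTSeq. The TopHat2 version differs between the submitters' notes and the paper, the labels name a total RNA kit where the paper speaks of mRNA libraries, and the strand setting of the counting is not given in the sources used here.

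Columns were matched to mice by name, and each library is a separate mouse. Counts were scaled by TMM. Genes that reached 1 CPM in 3 or more libraries were tested with glmQLFit and glmQLFTest of edgeR 4.0.16 (R 4.3.3), genotype as the only term, p-values adjusted by Benjamini-Hochberg, threshold 0.05. A standard error is the log2 fold change over the square root of F. Alternatives were DESeq2 1.42.0, voom (limma 3.58.1), the likelihood-ratio test, RLE factors, no filter, a replicate block and fits without single libraries, and unique windows as length, counts of genes near the filter and single genes without TG replicate 2 were added after seeing the data. On simulated counts for 15102 genes the test recovered 79% of 200 genes changed by 1 on the log2 scale, with 7.06% false calls.

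The 4 members and all lists were chosen with earlier results of these data known. Named by rule were the members, up to 4 called genes a direction in each list of the pathway and among the other keratins, the members' neighbours, *Krt5*, *Krt14*, *Krt1* and *Krt10*, and the 6 genes nearest in pattern, with a pseudocount of 0.5 CPM. Other list genes named with values, and the gene nearest in pattern to each single member, were picked after these were seen. *Il17a*, *Il22*, *Flg*, *Eppk1*, *Krt85* and *Ly6g* were not analysed here. One transcription factor that the rule names is counted but not reported here.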

Additional observations from a re-analysis of the deposited data

How the results depend on the processing

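The direction of *Krt6a*, *Krt6b*, *Krt16*, *Krt17* and the sum of *Krt6a* and *Krt6b* was kept under every alternative run. With single libraries left out, the log2 fold change ran from 1.01 to 1.58 for *Krt6a*, from 2.53 to 3.31 for *Krt6b*, from 2.06 to 2.59 for *Krt16*, from -0.82 to -0.40 for *Krt17* and from 1.52 to 2.04 for the sum. The highest values for *Krt6a*, *Krt17* and the sum were those without TG replicate 2.

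Counts of genes past the threshold depended on the test. Over all genes, 288 became 1590 with DESeq2, 1568 with the likelihood-ratio test and 497 without the filter on low counts. Under DESeq2 the calls were 21 for the activation genes, 14 for the ligands and receptors, 8 for the transcription factors, 5 for the companion layer and outer root sheath list and 10 for the other keratins. Under the likelihood-ratio test they were 22, 9, 5, 5 and 33, and without the filter 15, 2 and 4 for the first 3 lists. RLE factors (357 genes) and voom (249 genes) changed no list's count by over 1.5 times. The cause of these shifts was not tested.

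With single libraries left out, the counts ran from 0 to 816 over all genes, from 0 to 14 for the activation genes, from 0 to 4 for the ligands and receptors, from 0 to 6 for the transcription factors, from 0 to 2 for the companion layer list and from 0 to 28 for the other keratins, the highest count in each case without TG replicate 2. They stayed at 0 for the filament partners and the cell cycle.

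Same-numbered mice did not deviate together (correlations of -0.33, -0.23 and -0.05). With 3 mice per genotype such correlations cannot settle whether the numbers pair the samples. With a replicate block, 0 genes passed over all genes and 0 in the activation, transcription factor and other keratin lists, with 2949 genes at an unadjusted p below 0.05, while the log2 fold changes were 1.22 for *Krt6a*, 2.87 for *Krt6b*, 2.28 for *Krt16*, -0.66 for *Krt17* and 1.68 for the sum.

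Levels per kb rose to 158 and 381 CPM per kb (WT and TG) for *Krt6a*, 35.9 and 258 for *Krt6b* and 73.1 and 345 for *Krt16* when only unique windows were taken as length, a choice made after seeing the data, while raw library totals or the longest transcript moved no mean by more than the spread between mice. With the same length, *Krt16* made up 9.18% (WT) and 42.9% (TG) of the type I pair, and the ratio of type I to type II stress genes fell from 7.33 to 4.24 in WT and from 2.07 to 1.36 in TG skin, since the lengths of *Krt6a*, *Krt6b* and *Krt16* shrink more than that of *Krt17*.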
